A study of Neurospora crassa with 2 samples.

Results

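The 5 genes described here belong to the cross-pathway control of amino acid synthesis in the filamentous fungus Neurospora crassa and to the arginine pathway that it acts on. They were chosen by gene identifier, as cpc-1, cpc-2, cpc-3, arg-2 and arg-3, and all 5 were found among the 9454 genes of the expression table. A wild-type strain was compared with a upf1 knockout strain, 1 library each. UPF1 is the helicase on which nonsense-mediated mRNA decay depends. Both strains were cultured alike, 2 weeks on minimal slants and then 2 days in 2% glucose medium under constant light, with no further treatment. Each library was polyadenylated RNA of hyphae pooled from 3 flasks grown independently, so there is no replicate and no p-value. The labels give no amino acid starvation and no arginine supplement, and they do not say how upf1 was removed or whether the knockout is 1 isolate.

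In fungi, a shortage of any of several amino acids raises the enzymes of many amino acid pathways at once, which in Neurospora is called cross-pathway control and in budding yeast general control. Uncharged tRNA activates a protein kinase, CPC-3 (Gcn2 in yeast), which phosphorylates the translation initiation factor eIF2, and translation of the transcription factor CPC-1 (Gcn4 in yeast) then increases because ribosomes pass the short reading frames that lie upstream in its mRNA. The arg-2 mRNA carries another kind of upstream reading frame, which encodes the arginine attenuator peptide. In the presence of arginine this peptide stalls the ribosome that made it and lowers arg-2 translation, and for CPA1, the yeast counterpart of arg-2, the stall is known to expose the mRNA to nonsense-mediated decay. The comparison asks whether the transcripts of these genes, 2 of which carry upstream reading frames, differ in abundance without UPF1.

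The knockout library held 56306422 reads over the table and the wild-type library 28189643. Levels below are RPKM, reads corrected for the length of the gene model and for library size, as the authors deposited them. Ratios between libraries compare reads over the library totals, and the interval after each is a 95% Clopper-Pearson interval, exact but for counting error alone. The targeted gene, prd-6 (upf1), stood at 2.78 RPKM in the knockout library against 22.6 RPKM in the wild-type library, which is the direction of the labels. Log2 ratios are those of knockout over wild type on the scale of log2(RPKM + 1), where a pseudocount of 1 understates differences of weak genes. Over the 7367 eligible genes, those reaching 5 RPKM in 1 library or both, the median log2 ratio was 0.15 with quartiles at -0.28 and 0.69, and 40.6% of the ratios were negative and 59.4% positive. That median moved to -0.020 with TMM scaling, so log2 ratios of the 5 genes are also given relative to the median gene. Conidia can form on hyphae, and 10 markers of conidiation were listed, none of them at 0 in either library. They summed to 2602 RPKM in the knockout against 16142 in wild type, mostly the rodlet gene eas. Without eas the sums were 984 and 159 RPKM. Most of the knockout sum was con-6 and con-8 (642 and 228 RPKM), which had only 27.4 and 6.25 RPKM in wild type. Of the 9 eligible markers 4 were at least 2-fold higher, beside 16.5% of all eligible genes, and 3 at least 2-fold lower, beside 5.52%. Those lower were eas, fl (17.7 and 47.2 RPKM) and acon-3 (1.22 and 5.15 RPKM). The part of the markers in the results was not tested, and in bulk RNA fewer cells of a type and less RNA per cell cannot be told apart.

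The 5 transcripts did not share a direction. cpc-1 was higher in the knockout library, arg-2 was slightly lower, and cpc-2, cpc-3 and arg-3 were lower by 1.79-fold to 2.05-fold. All 5 were eligible. None was at least 2-fold higher, beside 16.5% of all eligible genes, and 1, arg-3, was at least 2-fold lower, beside 5.52% of all eligible genes. That single call sits at the threshold, and the number of the 5 called lower ranged from 0 to 3 over the scalings and pseudocounts tried. The order of the levels was the same in both libraries, with cpc-1 highest, then cpc-2, arg-2, arg-3 and cpc-3, and neighbours in this order were apart by more than their counting intervals in each library.

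**Figure D1:**
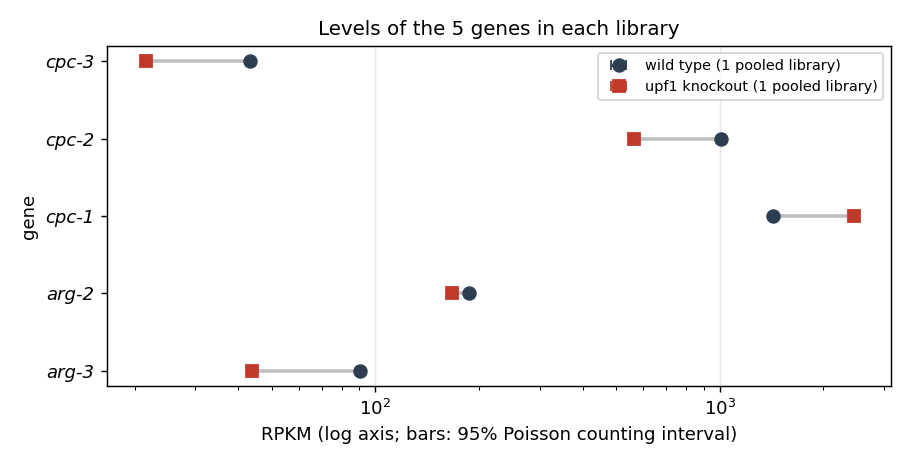
Levels of the 5 genes on a log axis of RPKM, with the wild-type library as circles and the knockout library as squares; bars are 95% Poisson counting intervals, mostly hidden by the symbols, and there is 1 pooled library per strain. The knockout symbol lies to the right of the wild-type symbol for cpc-1 (2462 against 1427 RPKM) and to the left of it for the other 4 genes.

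The sensor kinase gene comes first. cpc-3 (NCU01187) spans positions 3169391 to 3175031 of supercontig 5, plus strand. Coordinates here are those deposited, and no source used here names their genome build. It had 6987 reads in the knockout library, or 21.6 RPKM (95% Poisson interval 21.1 to 22.1), and 6955 reads in the wild-type library, or 43.4 RPKM (42.4 to 44.5). Nearly equal read numbers therefore stand for different levels, since the library totals differed 2.02-fold. The transcript was 2.01-fold lower in the knockout library (1.94 to 2.08). On the log2(RPKM + 1) scale its ratio was -0.97, just short of 2-fold, and -1.13 relative to the median gene. Only 5.78% of eligible genes had a lower ratio. Its gene model of 5420 bp fell in the longest eighth of models, whose median log2 ratio was -0.10, and within that eighth 4.13% of 921 genes had a lower ratio.

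Of a list of genes that act with eIF2 and GCN2, only 3 product names were found. All 3 had positive log2 ratios, as had 59.4% of all eligible genes, and 1 was at least 2-fold higher, too few to read a direction from. NCU00366, translation initiation factor 5, which promotes GTP hydrolysis by eIF2 at the start codon, stood at 487 RPKM in the knockout against 140 in wild type, 3.47-fold higher (3.40 to 3.55). NCU11341, annotated as eIF-2B, the exchange factor that phosphorylated eIF2 inhibits, had 11.1 and 5.51 RPKM, but its model overlaps a neighbour. NCU04051, annotated GCN20, a name that in yeast belongs to a protein that helps activate Gcn2, had 44.1 and 33.3 RPKM. This GCN20 entry is also the gene next to cpc-1 on supercontig 6, on the opposite strand and 971 bp away.

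cpc-2 encodes the Neurospora protein of the RACK1 family, a WD-repeat protein of the small ribosomal subunit that is needed for cross-pathway control; the deposited table calls NCU05810 a hypothetical protein. It spans positions 344629 to 346739 of supercontig 7, minus strand. The knockout library gave 47752 reads, or 563 RPKM (558 to 568), and the wild-type library 42412 reads, or 1009 RPKM (999 to 1018). The transcript was 1.79-fold lower in the knockout (1.77 to 1.82), with a log2 ratio of -0.84, and -0.99 relative to the median gene. Of all eligible genes 7.53% had a lower ratio. Among 923 models of similar length, 1214 to 1471 bp, where the median log2 ratio was 0.32, 7.15% had a lower one, and with the median of its length bin subtracted cpc-2 stood at -1.16, past 2-fold.

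Genes named for the ribosomal subunit to which RACK1 binds mostly lay within 2-fold, as did 5746 of the 7367 eligible genes. Of 29 eligible entries named for the 40S subunit, 25 had negative log2 ratios, a share of 86.2% beside 40.6% of all eligible genes, and the median was -0.46. At least 2-fold lower were 3 of them, beside 5.52% of all eligible genes, and none was at least 2-fold higher, beside 16.5%. The median log2 ratio of eligible genes fell with model length, from 0.56 in the shortest eighth to -0.10 in the longest. With length-bin centring 8 of the 40S entries were lower, where the lower calls over all eligible genes also rose, from 407 to 604. Of these 29, 26 had a higher ratio than cpc-2 and 3 a lower one. The lowest ratios belonged to crp-2, the gene of protein S14 (556 RPKM in the knockout against 1340 in wild type), and to NCU06047, the gene of protein S2 (480 and 1015 RPKM). The highest belonged to second entries of the S13 and S9 names, NCU09539 (365 and 189 RPKM) and NCU03827 (124 and 86.3 RPKM). The level of cpc-2 lay within the range of these genes: 19 of the 29 were above it in the knockout library, as were 21 in the wild-type library. Product names and crp symbols made this list, and reads shared between close paralogues are uncertain. The second S13 and S9 entries, and a second S8 entry, NCU02951 (65.4 and 53.6 RPKM), stood below their namesakes in both libraries. Whether these second entries belong to the cytosolic 40S subunit was not checked.

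cpc-1 encodes the basic leucine zipper (bZIP) transcription factor of cross-pathway control, and it was the one gene of the 5 with a higher level in the knockout library. NCU04050 spans positions 2068182 to 2070001 of supercontig 6, minus strand, and overlaps no other gene model. The knockout library gave 258869 reads, or 2462 RPKM (2452 to 2471), and the wild-type library 74336 reads, or 1427 RPKM (1417 to 1437). It took 0.460% of all knockout table reads and 0.264% of all wild-type ones. By RPKM it ranked 19th of all genes in the knockout library, against 60th in the wild-type library. The transcript was 1.73-fold higher in the knockout (1.71 to 1.74).

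The narrow interval of cpc-1 reflects its depth, and the scaling between libraries moved the value more than counting error did. Its log2 ratio was 0.79 as deposited, 0.63 relative to the median gene, 0.60 with TMM scaling and 0.62 with length-bin centring. It stayed positive in all of these and short of 2-fold in each. Of all eligible genes 78.1% had a lower ratio and 1616 had a higher one, so a difference of this size was common in this pair of libraries.

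Other bZIP genes gave a background from the same protein family. The list held 9 eligible genes, cpc-1 among them, of which 1 was at least 2-fold higher (0 with median centring or TMM scaling; 16.5% of all eligible genes) and 1 at least 2-fold lower (5.52% of all), with a median log2 ratio of -0.01 whose sign has no weight. cys-3, the regulator of sulfur acquisition, had 333 RPKM in the knockout against 155 in wild type, a log2 ratio of 1.10 and the one above that of cpc-1. ada-1 had 177 and 377 RPKM, the lowest ratio of the list at -1.09. Both overlap a neighbouring model, so their values are uncertain. asl-1 stood at 37.2 and 42.1 RPKM. In level cpc-1 stood above all 8 others in both libraries, whose medians were 69.6 RPKM in the knockout against 68.0 in wild type.

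**Figure D2:**
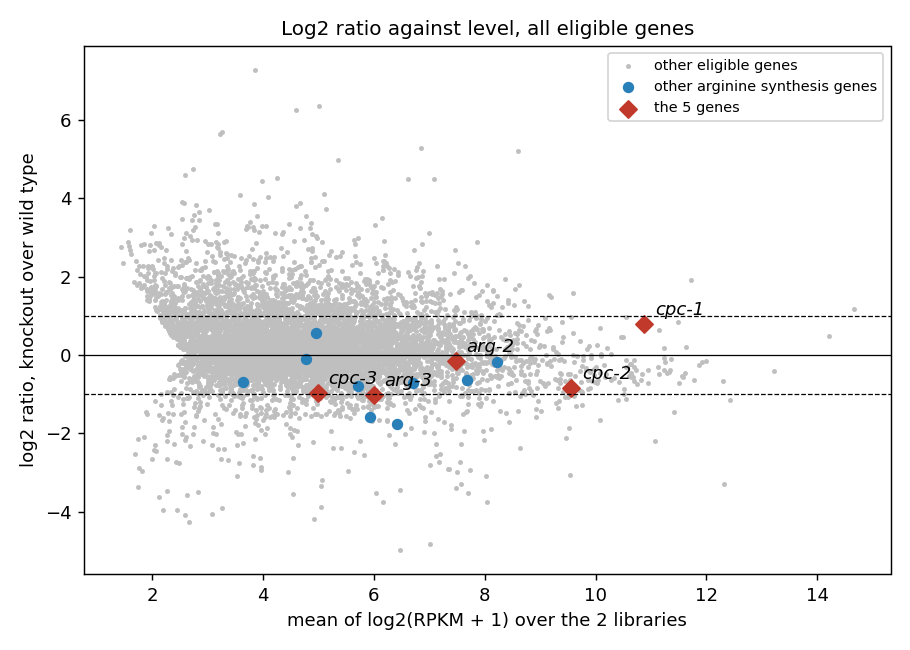
Log2 ratio of knockout over wild type against the mean of log2(RPKM + 1) for the 7367 eligible genes (grey), the arginine synthesis genes other than arg-2 and arg-3 (blue circles) and the 5 genes (red diamonds, named); dashed lines mark 2-fold. cpc-1 lies far to the right at a ratio of 0.79, arg-2 near 0 at -0.17, and cpc-2, cpc-3 and arg-3 between -0.84 and -1.02.

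arg-2 and arg-3 encode the small and the large subunit of the carbamoyl-phosphate synthase that serves arginine synthesis. The small subunit releases ammonia from glutamine and the large subunit makes carbamoyl phosphate from it, and only arg-2 carries the arginine attenuator peptide. arg-2 (NCU07732) spans positions 2061188 to 2063579 of supercontig 4, plus strand, and overlaps no other model. It had 19602 reads in the knockout library, or 167 RPKM (165 to 169), and 10904 reads in the wild-type library, or 187 RPKM (184 to 191). The intervals do not overlap, but the difference was small: 1.12-fold lower in the knockout (1.10 to 1.15). Its log2 ratio was -0.17 as deposited and -0.32 relative to the median gene, and 30.7% of eligible genes had a lower ratio. Reads were deposited per gene model, so the upstream reading frame itself and transcript forms with and without it cannot be told apart.

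arg-3 (NCU02677) spans positions 3170432 to 3174790 of supercontig 1, plus strand. It had 10978 reads in the knockout library, or 43.9 RPKM (43.0 to 44.7), and 11168 reads in the wild-type library, or 90.1 RPKM (88.4 to 91.8). The transcript was 2.05-fold lower in the knockout (2.00 to 2.11), with a log2 ratio of -1.02 and of -1.17 relative to the median gene. Of all eligible genes 5.31% had a lower ratio. With length-bin centring the log2 ratio was -0.92, and with a pseudocount of 5 it was -0.96, both short of 2-fold. The last 103 bp of its model overlap NCU02678, a gene of the opposite strand with 1437 and 676 reads, and no source used here says whether reads were counted by strand. If every read of that neighbour had also been counted for arg-3, they would make up 13.1% and 6.05% of its reads, and without them arg-3 would be 2.22-fold lower (2.16 to 2.28).

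The balance of the 2 subunit transcripts differed between the libraries. Within a library their ratio does not depend on the library total. arg-2 stood at 3.81 times the RPKM of arg-3 in the knockout library, against 2.08 times in the wild-type library. The first ratio was 1.83 times the second (conditional exact interval 1.77 to 1.89, counting error only). With every read of the overlapping model taken off arg-3 it was 1.98 times (1.91 to 2.05). That assumes all of those reads were also counted for arg-3, though only 103 of that model's 1646 bp overlap. The models differ in length, 1969 bp for arg-2 and 4196 bp for arg-3, and with each gene centred on its length bin the quotient was 1.52. Both transcripts were lower in the knockout library, arg-3 by more. The log2 of the quotient as deposited was 0.87, and log2 ratios of all eligible genes had quartiles at -0.28 and 0.69. How often 2 eligible genes differ by this much was not computed.

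The same reckoning was made for all 10 pairs of the 5 genes, and in 9 of them the interval of counting error excluded equal ratios. The exception was arg-3 with cpc-3: arg-3 stood at 2.03 times the level of cpc-3 in the knockout against 2.07 times in wild type, a quotient of 0.978 (0.938 to 1.02). With at least 6955 reads per gene such intervals are narrow. The share of all gene pairs that exclude equal ratios was not computed, so the count of 9 is not read as particular to these genes. For cpc-2 the sign relative to these genes depended on the setting. It stood at 26.0 and 23.2 times the level of cpc-3 (quotient 1.12, 1.08 to 1.16) and at 12.8 and 11.2 times that of arg-3 (1.15, 1.11 to 1.18), but with length-bin centring the quotients were 0.837 and 0.856. cpc-1 was higher relative to all 4 others in the knockout library, by quotients of 1.94 to 3.54 as deposited and 1.94 to 3.44 with length-bin centring. It stood at 114 times the level of cpc-3 in the knockout against 32.9 times in wild type (quotient 3.47, 3.35 to 3.59), and at 4.38 and 1.41 times the level of cpc-2 (3.09, 3.05 to 3.14). Relative to arg-2, the other gene with an upstream reading frame, cpc-1 stood at 14.7 and 7.61 times (1.94, 1.89 to 1.99), and relative to arg-3 at 56.1 and 15.8 times (3.54, 3.45 to 3.64).

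The rest of the arginine pathway placed arg-2 and arg-3 at different points of its range. The list of arginine synthesis genes held 11 entries, arg-2 and arg-3 included, all of them eligible. 10 had negative log2 ratios, a share of 90.9% beside 40.6% of all eligible genes, and the median was -0.69 against 0.15. At least 2-fold lower were 3, arg-3, arg-5 and arg-12, beside 5.52% of all eligible genes, and none was at least 2-fold higher, beside 16.5%. Since arg-3 and arg-12 overlap neighbours, 1 of the 3 was left without overlapping models. Of the 10 other genes, 2 had a higher log2 ratio than arg-2 and 8 a lower one, whereas 8 had a higher one than arg-3 and 2 a lower one. Among the 8 below arg-2, arg-1 was level with it at -0.17. The deposited values of arg-1 imply different model lengths, 1909 bp in the knockout and 1834 bp in wild type. By reads over library totals arg-1 stood at 0.924 of wild type (0.907 to 0.941), above arg-2 at 0.891 (0.870 to 0.912), with intervals that overlap slightly. Without arg-2 and arg-3 the 9 remaining genes had a median log2 ratio of -0.69 as well.

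The first steps make ornithine from glutamate. arg-14, the gene of acetylglutamate synthase, had 36.7 RPKM in the knockout against 24.7 in wild type, 1.49-fold higher (1.41 to 1.57), and was the one arginine synthesis gene on the higher side. arg-6, whose product carries out the kinase and reductase steps that follow, had 38.6 and 67.6 RPKM. arg-5, the gene of acetylornithine aminotransferase, had 34.1 and 104 RPKM, 3.04-fold lower (2.92 to 3.17). arg-4, annotated as arginine biosynthesis argJ, the name of the enzyme that recycles the acetyl group, had 80.6 and 134 RPKM.

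Ornithine and the carbamoyl phosphate made by the arg-2 and arg-3 products then meet at the next enzyme. arg-12 encodes it, ornithine carbamoyltransferase, and had 45.2 RPKM in the knockout against 157 in wild type, the lowest log2 ratio of the list at -1.77, but 100 bp of its model overlap ilv-4 and the value is uncertain. arg-13, the gene of the mitochondrial ornithine carrier, had 25.3 and 27.3 RPKM, and the interval of its ratio, 0.853 to 1.01, included 1. The last 2 steps are taken by argininosuccinate synthase, encoded by arg-1 with 280 and 315 RPKM, and argininosuccinate lyase, encoded by arg-10 with 164 and 255 RPKM. arg-15, which the table annotates as a beta-Ala-His dipeptidase, had 8.84 and 14.9 RPKM. In level arg-2 stood behind arg-1 alone in the knockout library and behind arg-1 and arg-10 in the wild-type library, while 5 and 6 of the other genes stood above arg-3.

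**Figure D3:**
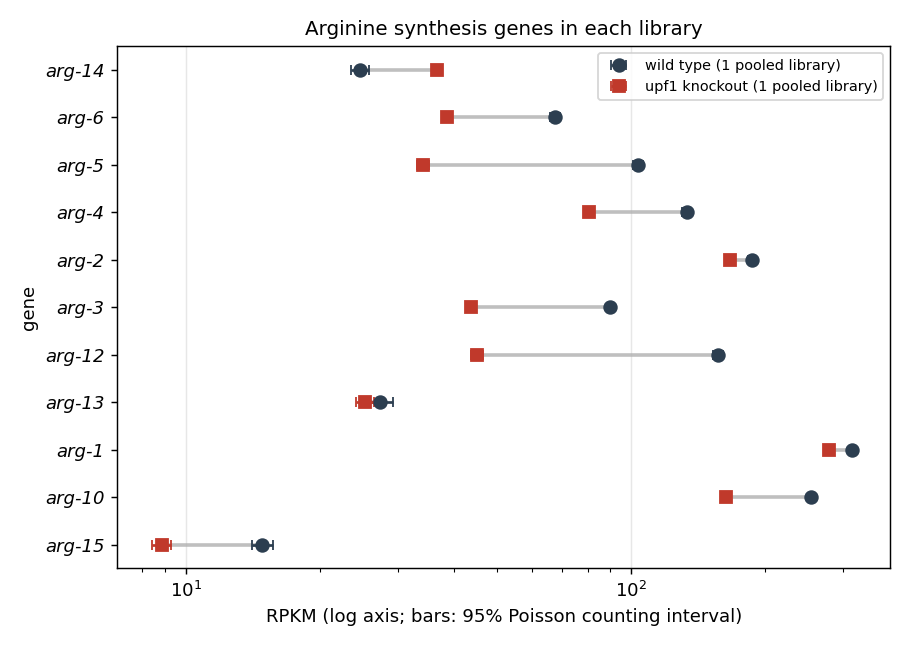
RPKM of the 11 arginine synthesis genes on a log axis, in the order of the pathway with arg-15 last; circles are the wild-type library, squares the knockout library, and bars 95% Poisson counting intervals of 1 pooled library each. The knockout symbol lies to the left for 10 genes and to the right for arg-14; the distance is short for arg-2, arg-13 and arg-1 and long for arg-5 and arg-12.

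Cross-pathway control also acts on enzymes of other amino acids. Of 52 eligible genes with symbols of other amino acid pathways, 40 had negative log2 ratios, a share of 76.9% beside 40.6% of all eligible genes, with a median of -0.60. At least 2-fold lower were 12, beside 5.52% of all eligible genes, and 1 was at least 2-fold higher, beside 16.5%. Over all eligible genes 407 were lower as deposited, 547 with median centring, 576 with TMM scaling and 604 with length-bin centring. Of the list 18, 21 and 19 were lower with median centring, TMM scaling and length-bin centring. The 2 lowest were his-6, a gene of histidine synthesis whose model overlaps a neighbour (46.0 RPKM in the knockout against 189 in wild type), and thr-4, the gene of homoserine kinase (10.2 and 43.9 RPKM). The single gene past 2-fold on the higher side, leu-5, encodes a leucyl-tRNA synthetase and no enzyme of leucine synthesis, as does leu-6 among the 12 lower genes; without tRNA synthetases 11 were lower and 0 higher. ilv-5, with the next highest ratio at 102 and 56.6 RPKM, is annotated as a pyruvate decarboxylase. Symbols alone made this list, and cys-14 is annotated as a sulfate permease and cys-9 as a thioredoxin-disulfide reductase. Whether each entry is an enzyme of amino acid synthesis or under cross-pathway control was not checked. Overlapping models were not left out of this list in any setting. Beside these medians, -0.60 and -0.69 for the arginine genes, the transcript of the transcription factor cpc-1 stood at 0.79 and that of arg-2 at -0.17.

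**Figure D4:**
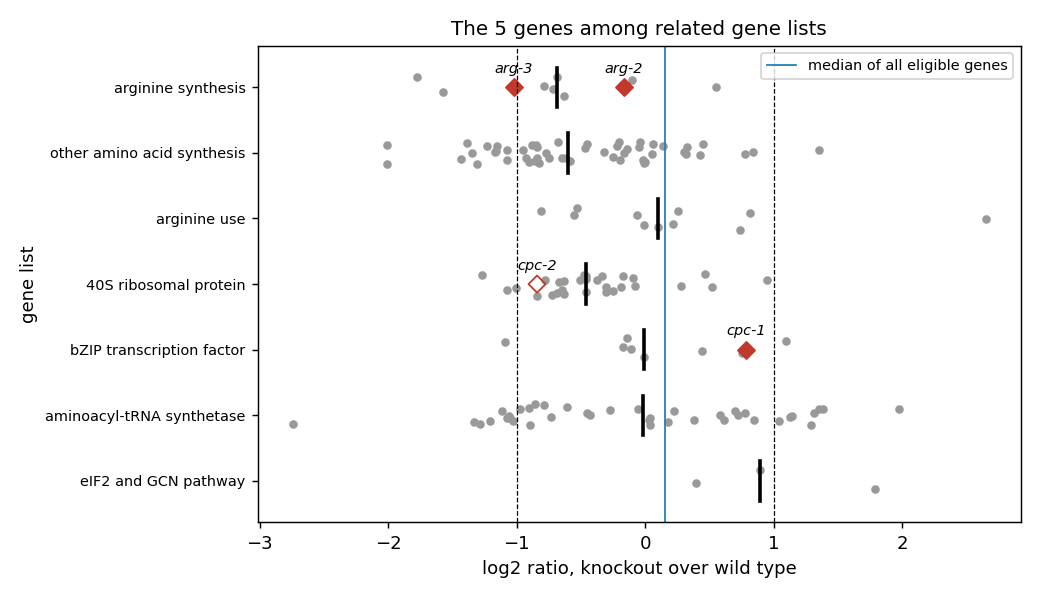
Log2 ratio of knockout over wild type for every eligible gene of 7 lists, 1 row per list; black bars are list medians, the blue line is the median of all eligible genes (0.15), and dashed lines mark 2-fold. Red diamonds mark the 5 genes where they belong to a list, and the open diamond shows cpc-2 beside the 40S genes: arg-2 lies above and arg-3 below the arginine median of -0.69, and cpc-1 lies above the bZIP median of -0.01.

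Over so few samples a shared pattern has little content, since 2 values fix it: closeness was measured as the distance between pairs of log2(RPKM + 1) values over the 2 libraries. The nearest genes to cpc-2 were those of ribosomal proteins, NCU03102 (40S protein S11, 597 and 1023 RPKM, distance 0.088) and un-25 (60S protein L13, 526 and 1041 RPKM, distance 0.11). cpc-1 had no gene within a distance of 0.1, and its nearest were NCU10051, annotated as flavohemoglobin (2812 and 1806 RPKM, distance 0.39), and the hypothetical protein gene NCU03233 (2104 and 1072 RPKM). Nearest to arg-2 were nuo18.4, a gene of respiratory complex I (167 and 183 RPKM, distance 0.035), and NCU06986 (162 and 194 RPKM). For arg-3 they were NCU07126 and NCU00878, and for cpc-3 NCU01898 and NCU07305, all 4 hypothetical proteins.

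As deposited, the eligible genes beside the 5 on their supercontigs lay within 2-fold, as did 5746 of the 7367 eligible genes. Of the 10 adjoining models 9 were eligible, and their log2 ratios lay between -0.87 and 0.50. In other settings some passed 2-fold. NCU04049, next to cpc-1, stood at -1.03 with median centring, -1.05 with TMM scaling and -1.06 with length-bin centring. NCU01188, next to cpc-3, stood at -1.06 with length-bin centring. NCU07733, which lies 791 bp from arg-2 on the same strand and encodes a subunit of the electron transfer flavoprotein, had 167 and 175 RPKM. NCU02678, the neighbour that overlaps arg-3, had 14.6 and 13.9 RPKM.

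**Figure D5:**
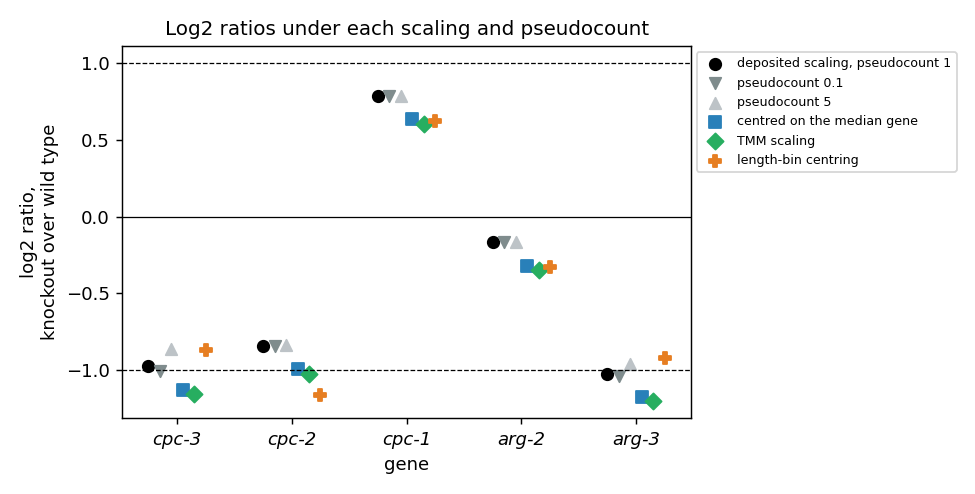
Log2 ratio of knockout over wild type for the 5 genes under the deposited scaling with pseudocounts of 1, 0.1 and 5, relative to the median eligible gene, with TMM scaling, and relative to the median of genes of like model length; dashed lines mark 2-fold. No gene changes side of 0, cpc-1 stays between 0.60 and 0.79, and cpc-2, cpc-3 and arg-3 lie on both sides of the lower 2-fold line.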

How the data were processed

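Each strain was 1 library of polyadenylated RNA pooled from 3 flasks. The deposited table gives raw read counts per gene model and the authors' RPKM values, per the file headers, and columns were assigned to strains by their names. The submitters' processing notes name Bowtie 0.12.2; no source used here gives the build, the annotation, the counting rule or the use of strand. Library totals were recovered from reads, RPKM and gene span, and 94.4% (knockout) and 95.4% (wild type) of each is in the table. Gene model lengths follow from these totals. Symbols, and nothing else, came from the RefSeq genes of assembly NC12, where 8930 of the 9454 identifiers matched a locus tag and 1110 had a symbol.

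Log2 ratios used a pseudocount of 1 RPKM, a filter of 5 RPKM in at least 1 library and a threshold of 2-fold. Ratios of reads over library totals, their exact Clopper-Pearson intervals, Poisson intervals of levels and conditional exact intervals of within-library ratios were computed with scipy 1.17.1. Without molecular identifiers reads are no independent molecules, and these intervals cover counting error only. Eligible genes had medians of 3052 and 1336 reads, and 3 reads in a gene of 1 kb, the limit that a count of 0 allows, are 0.0503 RPKM (knockout) or 0.102 RPKM (wild type). The fold and interval code was tested on simulated data. Alternatives were pseudocounts of 0.1 and 5, TMM scaling (edgeR 4.0.16), centring on the median gene or in 8 bins of gene model length, and the filter raised to 20 RPKM or dropped.

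Members and gene lists were chosen with earlier results of these data known. Lists were matched by symbol and product name. The rule for named genes took the 5 genes, upf1, all arginine synthesis genes, the 2 highest and 2 lowest ratios of each other list, the 2 nearest genes to each of the 5 and their neighbours; any other gene was named after its values were seen. The planned motif search in promoters was not run here.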

Additional observations from a re-analysis of the deposited data

How the results depend on the processing

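No paired analysis was possible because each strain is 1 pooled library, and no library can be left out. All 5 genes kept their direction under every setting. In the order arg-2, arg-3, cpc-1, cpc-2 and cpc-3 the log2 ratios were -0.32, -1.17, 0.63, -0.99 and -1.13 when centred on the median gene, -0.35, -1.20, 0.60, -1.02 and -1.15 with TMM scaling, and -0.33, -0.92, 0.62, -1.16 and -0.87 with length-bin centring. With a pseudocount of 5, arg-3 was at -0.96 and cpc-3 at -0.86, and the other 3 genes moved by less than their counting intervals. With every read of the overlapping model taken off, though only 103 bp overlap, arg-3 was at -1.13 and the arg-2 to arg-3 quotient at 1.98. That setting was chosen after seeing the data. With length-bin centring, also added then, the quotient was 1.52. Of the 5 genes, 1 was at least 2-fold lower as deposited, 2 with a pseudocount of 0.1 or median centring, 3 with TMM scaling and 0 with a pseudocount of 5; with length-bin centring it was again 1, but cpc-2 in place of arg-3. The genes higher among all those past 2-fold were 74.9% as deposited, 64.1% with median centring, 62.6% with TMM scaling and 58.5% with length-bin centring. Over all eligible genes 1214 were at least 2-fold higher and 407 lower as deposited. These counts were 978 and 547 with median centring, 963 and 576 with TMM scaling, and 850 and 604 with length-bin centring. With a pseudocount of 0.1 they were 1314 and 442, and with 5 they were 831 and 300.

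The arginine synthesis median lay between -0.86 and -0.62 in all settings; 1 in place of 3 genes was lower without overlapping models. The median of the arginine use genes reversed to -0.055 with median centring, -0.080 with TMM scaling and -0.059 with length-bin centring, where 1 was lower. Of the other amino acid genes 18 were lower with median centring, 21 with TMM scaling and 19 with length-bin centring, and 0 were higher without tRNA synthetases. With length-bin centring 8 of the 40S genes were lower and their median was -0.85. Of the tRNA synthetases 5 were higher and 13 lower with median centring or TMM scaling, and 5 were lower with a pseudocount of 5. Of the bZIP genes 0 were higher with median centring or TMM scaling, and their median was -0.19 with TMM scaling or length-bin centring. Of the conidiation markers 2 were higher with a filter at 20 RPKM. Beyond each setting's own construction, the cause was not tested. Depth did not limit the 5 genes, which had at least 6955 reads each; the lack of replicates did.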

Other observations

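The genes of arginine and ornithine use as a list showed no common direction. Both entries annotated as arginase, the enzyme that splits arginine, headed this list by log2 ratio and were named for that. The arginase gene aga-1 had 189 RPKM in the knockout library against 107 in the wild-type library, and 78.8% of eligible genes had a lower ratio. NCU02084, also annotated as an arginase, had 72.5 and 10.7 RPKM, 6.78-fold higher (6.12 to 7.54). Of the 11 eligible genes of this list 6 had positive and 5 negative log2 ratios. The positive share was 54.5%, beside 59.4% of all eligible genes. At least 2-fold higher was 1, NCU02084, beside 16.5% of all eligible genes, and none was at least 2-fold lower, beside 5.52%. The median log2 ratio of 0.10 changed sign with the scaling. At the lower end were NCU01511, a urease accessory protein gene that overlaps a neighbour (73.1 and 129 RPKM), and NCU04698, annotated as spermine/spermidine synthase (12.3 and 18.5 RPKM).

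The tRNA synthetases, whose uncharged substrates the CPC-3 kinase family senses, spread widely. Of 40 eligible entries 8 were at least 2-fold higher, beside 16.5% of all eligible genes, and 9 at least 2-fold lower, beside 5.52%. Over all eligible genes 1214 were higher and 407 lower as deposited, 978 and 547 with median centring, and 963 and 576 with TMM scaling. With median centring or TMM scaling 5 of the 40 entries were higher and 13 lower. The median log2 ratio was -0.01, and cytosolic and mitochondrial enzymes were not separated. Product names made this list, and not every entry need be a synthetase. NCU04410 is annotated as tRNA ligase, and NCU00930, annotated as a lysyl-tRNA synthetase, has the symbol tim10. The aspartyl-tRNA synthetase gene NCU00915 had 54.9 RPKM in the knockout against 373 in wild type, 6.79-fold lower (6.63 to 6.97), and the isoleucyl-tRNA synthetase gene NCU03575, which overlaps a neighbour, had 39.6 and 101 RPKM. At the higher end were the lysyl-tRNA synthetase gene NCU00931 (77.6 and 29.0 RPKM) and the glutamyl-tRNA synthetase gene NCU00466 (87.3 and 21.5 RPKM), the latter also in an overlapping model.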
